A study of Mus musculus with 2 samples.

Results

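Tissue exit and retention in liver immune cells were followed through 7 genes, *S1pr1*, *S1pr4*, *Klf2*, *Klf3*, *Ccr7*, *Cd69* and *Rgs1*, of the 13528 genes in the filtered count table of the study. The genes were taken by name and not by a filter on their values, but earlier results of these data were known. All 7 are in the table. Their levels are given by the deposited cell types, clusters and genotypes, together with the CD69 and CD197 (CCR7) antibodies of the same cells. In the GENCODE annotation of GRCm38 (mm10) the genes lie at chr3:115710433-115715072 (*S1pr1*), chr10:81497747-81500132 (*S1pr4*), chr8:72319033-72321656 (*Klf2*), chr5:64803388-64832901 (*Klf3*), chr11:99144196-99155077 (*Ccr7*), chr6:129267325-129275436 (*Cd69*) and chr1:144242296-144249242 (*Rgs1*).

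Immune cells were isolated from the livers of C57BL/6 mice labelled as 10 weeks old (the methods give a lower age), and transcripts and 49 surface proteins of each cell were counted as unique molecular identifiers (UMIs) on the BD Rhapsody system. TG mice carry dnTGFβRII, a dominant negative TGF-β receptor type II under the mouse *Cd4* promoter, and develop a cholangitis that resembles the human primary biliary disease. The wild type mice (WT) of the same background carry no transgene. The TG cells were captured together with cells of IFN-γ ARE-Del-/- mice and the WT cells together with cells of P40-/-IL-2Ra-/- mice, so each genotype is 1 library and the cells of the other strains were not analysed here. How many mice were pooled for each genotype is not given in the sources used here.

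The filtered table holds 4647 TG cells with a median of 3298 UMIs and 7282 WT cells with a median of 2653.5 UMIs. With 1 library per genotype there was no test between TG and WT, and genotype, pool and library cannot be told apart. Levels are UMIs summed over the cells of a class per 1000000 RNA UMIs of that class (CPM), with exact 95% Poisson intervals in square brackets. Differences are log2 ratios of TG over WT with exact conditional binomial intervals. All intervals cover counting error only, so "above 0" or "below 0" says nothing of the spread between mice. Their width depends on the number of UMIs, and the share of all genes with an interval off 0 is not given. Barcodes shared by both libraries numbered 36 among the analysed cells.

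Several deposited names were at odds with some of their markers. In cells named NK, the T cell genes *Cd3e* and *Trac* stood at 1158 and 836 CPM in TG against 97.9 and 196 CPM in WT. This lay in cluster 3 (*Cd3e* 1608 CPM in TG, 122 in WT) and cluster 11 (1401 CPM in TG), while NK cluster 8 held 133 and 67.5 CPM. The NK genes *Klrb1c* and *Ncr1* were held by these TG cells as well. They stood at 1111 and 506 CPM in TG cluster 3 (1421 and 961 CPM in WT) and at 999 and 412 CPM in TG cluster 11. In cells named immature B, the immature marker *Vpreb3* was lower (16.4 CPM in TG, 44.2 in WT) than in cells named mature B (142 and 217 CPM). In both genotypes IgM was the most abundant antibody of cells named immature B and IgD that of cells named mature B. The markers thus do not all go against the name. Cells named monocytes held 21386 and 10788 CPM of *S100a8*, which was used here as a neutrophil marker, and this gene alone does not decide the name. The haemoglobin gene *Hba-a1* was at 537 CPM in WT NK cells and 1613 CPM in WT CD8αα T cells and is listed at 0 in TG. The part of these markers in the results on those cells was not tested.

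A lymphocyte leaves a tissue by following sphingosine-1-phosphate (S1P), which is high in blood and lymph and low inside tissue, through the receptor S1PR1. The transcription factor KLF2 drives *S1pr1*, whereas CD69, an early activation protein, binds S1PR1 and removes it from the cell surface. Resident lymphocytes are known for low *Klf2* and *S1pr1* and for surface CD69. CCR7 leads cells to lymph nodes and out of tissue into afferent lymph, and RGS1 shortens signals of the Gi proteins that chemokine and S1P receptors use.

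The promoters of both Krüppel-like factors are shown because these factors are members themselves and bind CACCC elements, and because the *Klf2* promoter is a known target of MEF2 factors. RefSeq promoter entries were found for 3 of the 7 genes, with coordinates of GRCm38.p6, and the bases before the annotated gene start are printed 5′ to 3′ on the gene's strand. Capitals mark matches to CACCC (read on the other strand as GGGTG) or CTANNNNTAG, which reads alike on both strands. The *Klf2* window is chr8:72318812-72319032 (+) and the *Klf3* window is chr5:64803271-64803387 (+).
*Klf2*: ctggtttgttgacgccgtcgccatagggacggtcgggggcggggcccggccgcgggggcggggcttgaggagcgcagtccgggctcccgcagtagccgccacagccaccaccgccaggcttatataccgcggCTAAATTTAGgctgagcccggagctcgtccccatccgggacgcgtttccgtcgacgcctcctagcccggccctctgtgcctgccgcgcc
*Klf3*: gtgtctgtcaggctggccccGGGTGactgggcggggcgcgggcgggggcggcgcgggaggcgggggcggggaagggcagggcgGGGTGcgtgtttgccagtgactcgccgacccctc
The *Klf2* window held 1 match to CTANNNNTAG and 0 to CACCC, and the *Klf3* window held 2 matches to CACCC and 0 to CTANNNNTAG. Among 32851 promoters, CTANNNNTAG was present in 2.75% of windows of 221 bases directly before the RefSeq start. CACCC was present at least 2 times in 7.44% of windows of 117 bases directly before that start. The printed windows end upstream of their RefSeq start, at the annotated gene start. The shares are thus for a stretch nearer to the RefSeq start than the printed one. A match is a description of the letters and not evidence of binding.

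*S1pr1* divided the lymphocytes into cells with high and cells with low levels. In CD4 T cells its level was 254 [222, 291] CPM for TG and 284 [261, 309] CPM for WT, and it was 295 and 259 CPM in immature B cells, 169 and 192 CPM in mature B cells and 129 and 154 CPM in CD8αβ T cells. NK cells held 66.6 CPM in TG and 38.6 CPM in WT. NKT cells held 22.1 and 13.3 CPM, and CD8αα T cells held 9.06 and 14.5 CPM, so the highest WT cell type (CD4 T) stood 21.3-fold above the lowest (NKT). Of the 10 neighbouring pairs in the WT order, 8 had overlapping intervals, as did 5 of 9 in TG, so the exact ranks are not resolved although the ends of the order are. γδ T cells in WT held 218 CPM. A UMI of *S1pr1* was found in 48.4% of WT CD4 T cells and 3.36% of WT NKT cells. After each cell was thinned to 1000 UMIs these shares were 24.8% and 1.34%.

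Clusters within a cell type differed too. All CD4 T clusters held *S1pr1*, from 143.6 CPM (cluster 21, TG, 48 cells) to 328 CPM (cluster 6, WT). CD8αβ T clusters 4, 7, 12 and 13 held 111 to 219 CPM in both genotypes. CD8αβ T cluster 18 held 36.5 [20.4, 60.1] CPM in TG and cluster 23 held 28 [12.1, 55.2] CPM in WT, so the CD8αβ T cells contained a group low in *S1pr1* in each genotype.

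*S1pr4*, a second S1P receptor of lymphocytes, was spread more evenly. It stood at 214 and 167 CPM in TG and WT CD4 T cells, at 174 and 107 CPM in NK cells, at 160 and 139 CPM in CD8αβ T cells and at 105 and 75.3 CPM in NKT cells. CD8αα T cells held 63.4 and 76.4 CPM. NKT and CD8αα T cells, which nearly lacked *S1pr1*, thus kept *S1pr4* UMIs, and 8 of 9 neighbouring pairs in the TG order overlapped.

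*Klf2* followed the same division, with myeloid cells at the high end as well. Mature B cells of TG held 1490 CPM and those of WT 876 CPM, with 1317 and 950 CPM in immature B cells and 1125 and 1167 CPM in monocytes. CD4 T cells held 637 and 581 CPM and CD8αβ T cells 632 and 501 CPM. The lowest levels were in NKT cells (182 and 139 CPM) and CD8αα T cells (141 and 109 CPM). The fold between the highest and lowest cell type was 10.6 in TG and 10.7 in WT.

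*Klf3*, a factor of the same family that is itself known as a repressor, had the narrowest range of the 7 genes, with 5.88-fold between highest and lowest in TG and 7.69-fold in WT. It stood at 362 and 392 CPM in CD4 T cells, 264 and 304 CPM in CD8αβ T cells, 209 and 227 CPM in NKT cells and 94.4 and 100 CPM in CD8αα T cells. NKT cells were thus low in *Klf2* and *S1pr1* but near the CD8αβ T cells in *Klf3*.

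*Ccr7* was held by B cells and conventional T cells. Mature B cells held 217 and 265 CPM, CD8αβ T cells 63.4 and 118 CPM, immature B cells 55.7 and 98.3 CPM and CD4 T cells 52.1 and 166 CPM. NK, NKT and CD8αα T cells held between 1.82 and 7.93 CPM in either genotype. A small cluster without a cell type name, cluster 28, with 6 TG and 15 WT cells, held 1840 and 2406 CPM.

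*Cd69* transcript levels did not mirror those of *S1pr1*. Mature B cells held 491 and 616 CPM of *Cd69*, WT plasmacytoid dendritic cells 475 CPM and WT γδ T cells 439 CPM. CD8αβ T cells held 190 and 292 CPM, CD4 T cells 187 and 277 CPM, NKT cells 210 and 195 CPM and CD8αα T cells 185 and 207 CPM. NK cells were lower at 111 and 122 CPM. In WT the *S1pr1*-poor NKT and CD8αα T cells held less *Cd69* transcript than the *S1pr1*-rich CD4 T cells, while in TG the levels of these 3 cell types lay between 185 and 210 CPM.

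*Rgs1* was highest where *S1pr1* and *Klf2* were lowest among the lymphocytes. CD8αα T cells held 1049 [995, 1106] CPM in TG and 1829 [1718, 1946] CPM in WT. NK cells held 550 and 1388 CPM, NKT cells 569 and 579 CPM, CD4 T cells 243 and 260 CPM and CD8αβ T cells 200 and 303 CPM. B cells lay at the other end, with 63.7 and 131 CPM in mature and 33.6 and 49.2 CPM in immature B cells. Only basophils, with 45 TG and 16 WT cells, stood higher than the CD8αα T cells among the named cell types in both genotypes, at 2187 and 2173 CPM.

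**Figure D1:**
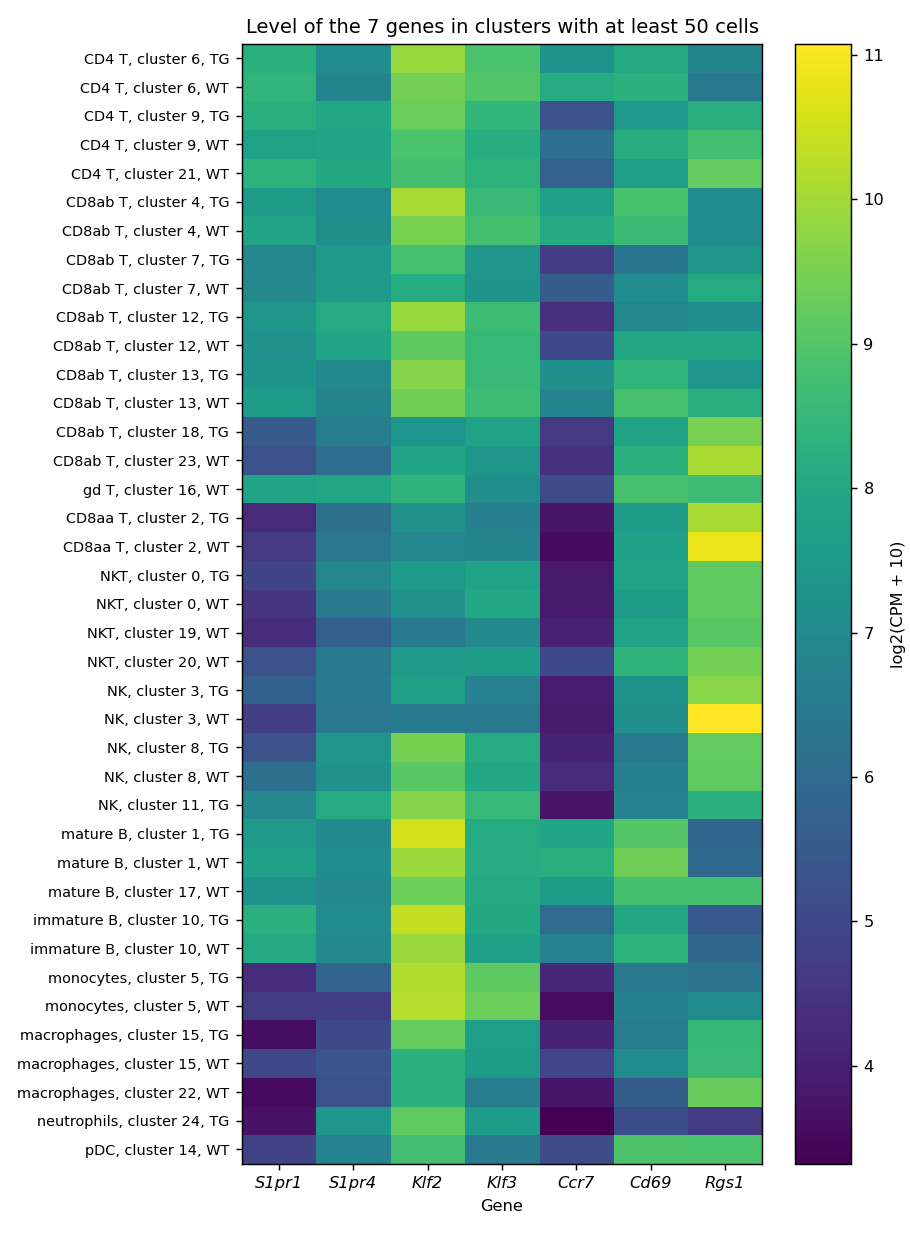
Colour gives the level of each of the 7 genes (x axis) as log2(CPM + 10) in each cluster and genotype with at least 50 cells (y axis, 39 profiles). CD8αα T, NKT and NK cluster 3 profiles are dark in *S1pr1* and *Ccr7* and bright in *Rgs1*, and B cell clusters 1 and 10 show the reverse.

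Across the 39 cluster and genotype profiles with at least 50 cells (17 TG, 22 WT), *Klf2* and *Rgs1* had a Pearson correlation of -0.80 on the log2(CPM + 10) scale. The value was -0.75 over TG profiles alone and -0.81 over WT profiles alone. *S1pr1* and *Ccr7* stood at 0.77, *Klf2* and *Klf3* at 0.73, *S1pr1* and *S1pr4* at 0.70, and *S1pr1* and *Klf2* at 0.54. *Cd69* stood at 0.72 with *Ccr7*, 0.54 with *S1pr1* and -0.03 with *Rgs1*. *S1pr1* and *Rgs1* stood at -0.41, with -0.27 over TG and -0.58 over WT profiles. The profiles share 2 libraries and many cell types, so these values are descriptions. WT CD4 T cluster 21 went against the pattern, since it held 313 CPM of *S1pr1* and 587 CPM of *Rgs1* together.

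**Figure D2:**
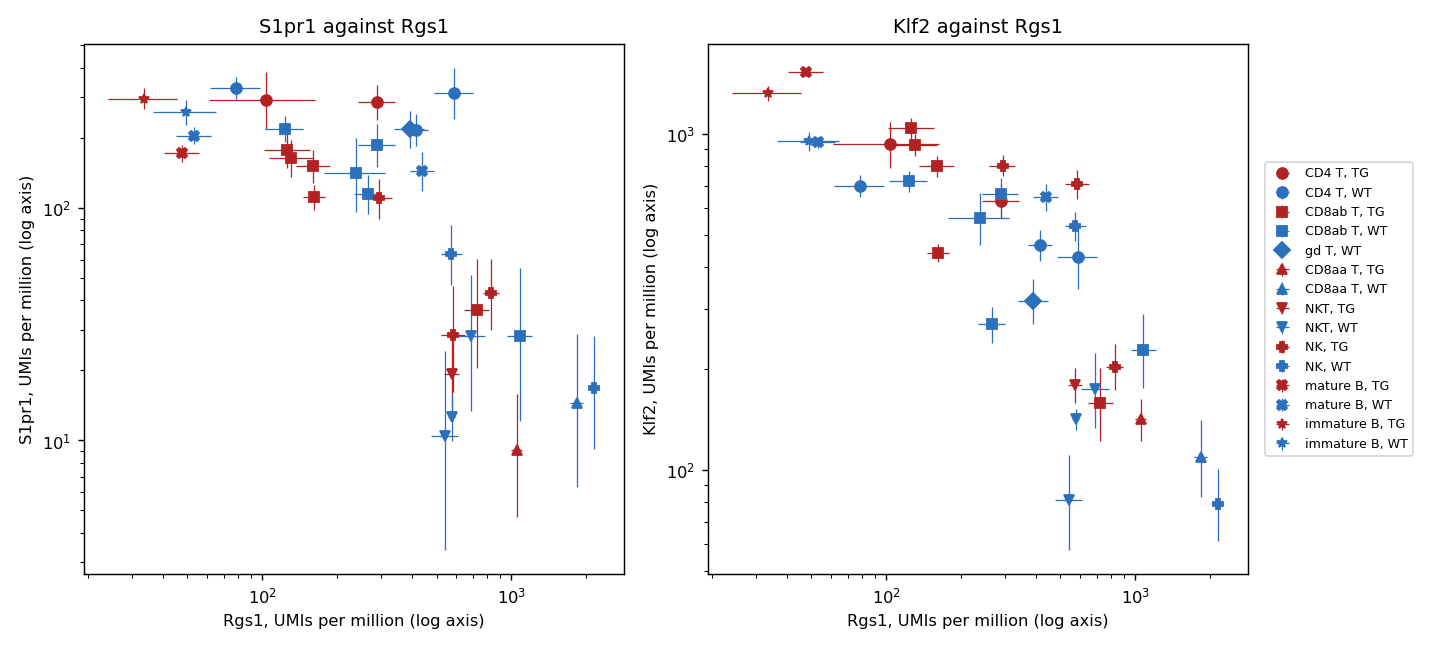
*S1pr1* (left) and *Klf2* (right) against *Rgs1*, all in CPM on log axes, 1 point per lymphocyte cluster and genotype with at least 50 cells, TG in red and WT in blue, with exact 95% Poisson intervals. Points with *Rgs1* above 500 CPM are mostly CD8αα T, NKT and NK profiles and CD8αβ T clusters 18 and 23, and the WT CD4 T cluster 21 at 587 CPM of *Rgs1* lies above them in *S1pr1*.

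TG and WT were then compared within the 9 cell types that had at least 50 cells in each genotype. A member was counted as called when the ratio was at least 2-fold with at least 50 UMIs over both genotypes. Of 55 member and cell type pairs with enough UMIs, 0 were called higher in TG, against 2.32% of all gene and cell type pairs, and 3 were called lower (5.45%), against 1.82% of all pairs. At 1.5-fold, 7 were called higher and 10 lower, against 8.39% and 7.06% of all pairs, and at 2-fold with no minimum of UMIs 3 and 5, against 12.1% and 10.9%. The 3 at 2-fold were *Ccr7* in CD4 T cells, where 1.86% of all genes were called lower, and *Rgs1* in NK cells (2.65%) and mature B cells (1.54%). Within clusters, 1 of 85 pairs was called higher, against 2.29% of all pairs, and 5 were called lower (5.88%), against 1.78%. The median log2 ratio over all genes lay between -0.06 and 0.07 in every one of these 9 cell types.

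*Klf2* was the gene most often above 0. In NK cells 572 CPM in TG stood against 296 CPM in WT, a log2 ratio of 0.95 [0.80, 1.11]. In mature B cells the ratio was 0.77 [0.70, 0.83]. The interval lay above 0 in 6 of 9 cell types and below 0 in none of them, and among clusters it lay above 0 in 12 of 14. In those 6 cell types the share of genes with a lower ratio ran from 77.9% in CD8αβ T cells to 98.0% in mature B cells. NK cluster 3 was the one called, with 203 CPM in TG and 79.2 CPM in WT, and this is the cluster where *Cd3e* also differed. NK cluster 8, with low *Cd3e* in both genotypes, had 708 and 531 CPM, a log2 ratio of 0.42 [0.21, 0.62]. Clusters 3 and 8 held 160 and 400 of the 1306 *Klf2* UMIs of TG NK cells, and the rest lay in cluster 11. NK cluster 11 made up 45.2% of TG and 3.58% of WT NK cells. Monocytes (-0.05 [-0.21, 0.11]), CD4 T cells (0.13 [-0.02, 0.28]) and CD8αα T cells (0.37 [-0.05, 0.82]) had intervals that included 0. Within CD4 T clusters 6 and 9 the ratios were 0.41 [0.16, 0.66] and 0.44 [0.21, 0.67]. Cluster 6, with more *Klf2* than cluster 9, held 24.4% of TG and 54.1% of WT CD4 T cells.

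*Klf3* differed little. Its log2 ratio was 0.68 [0.46, 0.90] in NK cells, 0.29 in immature B cells and -0.20 [-0.32, -0.08] in CD8αβ T cells, and the other 6 intervals included 0. Within the NK clusters 3 and 8 the ratios were 0.34 [-0.15, 0.84] and 0.16 [-0.17, 0.49]. Cluster 11, with 804 CPM of *Klf2* in TG, held 45.2% of TG and 3.58% of WT NK cells. Clusters 3 and 8 held 78 and 148 of the 558 *Klf3* UMIs of TG NK cells, and the rest lay in cluster 11.

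*S1pr1* was higher in TG NK cells (0.79 [0.35, 1.24]) and NKT cells (0.73 [0.15, 1.29]), both of them classes with low levels. It was slightly lower in CD8αβ T cells (-0.25 [-0.42, -0.08]) and mature B cells (-0.19 [-0.35, -0.02]), and in CD4 T cells the interval included 0 (-0.16 [-0.39, 0.07]). The NK value did not hold within cluster 8, where TG cells had 28.3 CPM and WT cells 63.4 CPM (-1.16 [-2.08, -0.32]), from 16 and 46 UMIs. In NK cluster 3, where *Cd3e* differed, it was 43.1 and 16.8 CPM (1.36 [0.42, 2.37]), from 34 and 14 UMIs. NK cluster 11 held 102 of the 152 *S1pr1* UMIs of TG NK cells. That cluster made up 45.2% of TG and 3.58% of WT NK cells. In NKT cluster 0 the ratio was 0.60 [-0.06, 1.24]. In CD4 T cluster 9 it was 286 and 217 CPM (0.40 [0.06, 0.74]). *S1pr4* lay above 0 in NK cells (0.70), NKT cells (0.49), CD4 T cells (0.36) and CD8αβ T cells (0.21) and below 0 in none of the 8 cell types with enough UMIs. In the cell types above 0 the share of genes with a lower ratio ran from 68.8% in CD8αβ T cells to 94.7% in NK cells. Within clusters *S1pr4* lay above 0 in 1 of 12, NKT cluster 0.

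*Ccr7* was lower in TG in CD4 T cells, CD8αβ T cells and both B cell classes. In CD4 T cells 52.1 CPM in TG stood against 166 CPM in WT, a 3.19-fold difference with a log2 ratio of -1.67 [-2.16, -1.21]. A *Ccr7* UMI was found in 10.1% of TG and 28.2% of WT CD4 T cells. In CD8αβ T cells the ratio was -0.90 [-1.12, -0.68] and in immature B cells -0.82 [-1.29, -0.36]. In mature B cells it was -0.29 [-0.43, -0.15], and 21.1% of genes there had a lower ratio. The clusters of these cell types differed in size between genotypes. Cluster 6, with the most *Ccr7* among CD4 T clusters of at least 50 cells, held 24.4% of TG and 54.1% of WT CD4 T cells, and within it the ratio was -0.85 [-1.49, -0.26]. In CD8αβ T cells, cluster 4 (258 CPM of *Ccr7* in WT) held 14.2% of TG and 44.3% of WT cells, and within it the ratio was -0.34 [-0.64, -0.05]. *Ccr7* was called lower within CD4 T cluster 9 (29.4 and 61.9 CPM, -1.07) and CD8αβ T cluster 7 (16.5 and 37.3 CPM, -1.17). Over the 7 clusters with enough UMIs, 6 intervals lay below 0, and CD8αβ T cluster 13 was the other one, with 138 and 101 CPM (0.45 [-0.03, 0.95]).

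*Cd69* transcript was lower in TG in the same 4 cell types. The log2 ratio was -0.62 [-0.75, -0.49] in CD8αβ T cells, -0.57 [-0.83, -0.31] in CD4 T cells, -0.38 in immature B cells and -0.33 in mature B cells, and it included 0 in the other 5. The share of genes with a lower ratio than *Cd69* was 5.50% in CD8αβ T cells and 8.01% in CD4 T cells. It was 15.8% in immature B cells and 17.5% in mature B cells. Of 14 clusters, 6 *Cd69* intervals lay below 0, 2 above and 6 included 0. CD8αβ T cluster 12 was called lower (109 CPM in TG, 237 CPM in WT, -1.12 [-1.64, -0.59]), while cluster 4 was higher (452 and 378 CPM, 0.26 [0.04, 0.47]) and NKT cluster 0 was also higher (0.23 [0.05, 0.40]).

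*Rgs1* lay below 0 in 6 of 9 cell types. In NK cells it was 2.52-fold lower in TG (-1.34 [-1.44, -1.24]), in mature B cells 2.05-fold lower (-1.04 [-1.28, -0.80]), and in CD8αα T cells the log2 ratio was -0.80 [-0.92, -0.68]. CD8αβ T cells and macrophages both stood at -0.60, and monocytes at -0.87. CD4 T cells (-0.10 [-0.34, 0.14]) and NKT cells (-0.02 [-0.13, 0.08]) did not differ beyond counting error as whole classes. CD4 T cluster 9 held 55.5% of TG and 37.1% of WT CD4 T cells. Within it the *Rgs1* ratio was -0.52 [-0.83, -0.23], and within CD4 T cluster 6 it was 0.40 [-0.425, 1.16]. Within NK clusters it was lower in cluster 3, with 827 CPM in TG and 2147 CPM in WT, and not in cluster 8, with 584 and 573 CPM (0.03 [-0.19, 0.24]). Cluster 11, at 293 CPM in TG, made up 45.2% of TG and 3.58% of WT NK cells. The mature B difference was not seen in cluster 1, with 47.5 and 53.0 CPM (-0.16 [-0.49, 0.18]). Cluster 17, which held 337 CPM in TG and 436 CPM in WT, made up 2.72% of TG and 10.4% of WT mature B cells, and after removal of cells carrying B together with T lineage transcripts the mature B ratio was -0.34.

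**Figure D3:**
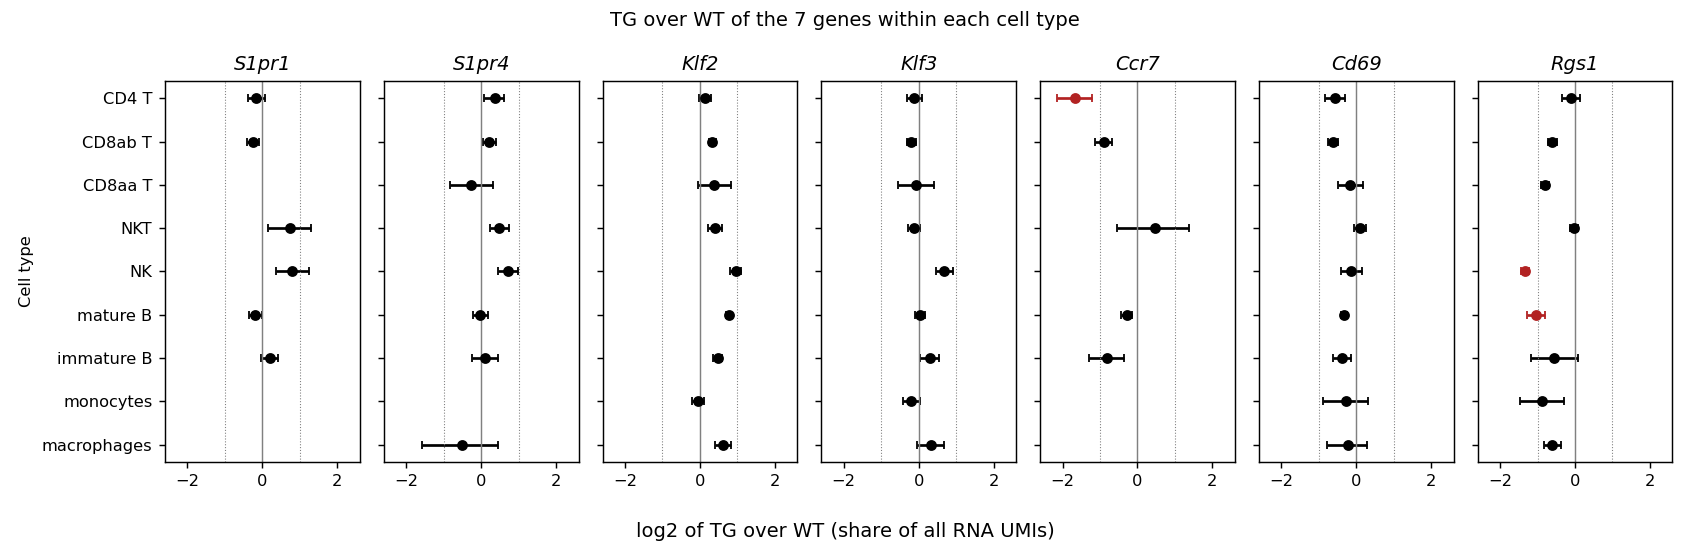
Log2 ratio of TG over WT (x axis) of each of the 7 genes in 9 cell types (y axis), with exact 95% intervals for counting error, red where the ratio was at least 2-fold and dotted lines at 2-fold. The red points are *Ccr7* in CD4 T cells (-1.67) and *Rgs1* in NK (-1.34) and mature B cells (-1.04), and pairs with fewer than 50 UMIs are not drawn.

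The balance of *S1pr1* to *Cd69* UMIs in the same cells needs no scaling between libraries, and only its differences between classes are read. On the log2 scale it was 0.44 [0.14, 0.75] in TG and 0.03 [-0.14, 0.21] in WT CD4 T cells, -0.56 and -0.92 in CD8αβ T cells, -0.74 and -1.66 in NK cells and -1.54 and -1.68 in mature B cells. It was far lower in NKT cells (-3.25 and -3.87) and CD8αα T cells (-4.35 and -3.83). The CD8αα T values rest on 12 TG and 8 WT *S1pr1* UMIs, with intervals of [-5.32, -3.52] and [-5.08, -2.81]. The difference between CD4 T and NKT cells was 3.69 in TG and 3.90 in WT. Between CD8αβ and CD8αα T cells it was 3.80 in TG and 2.91 in WT, with the wide intervals just given. The balance separated the same cell types in both genotypes.

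In single cells no profile showed fewer *S1pr1*-positive cells among *Cd69*-positive cells beyond counting error. After thinning to 1000 UMIs, the share of cells with an *S1pr1* UMI was compared between cells with and without a *Cd69* UMI in 32 cluster and genotype profiles. The interval of the difference lay below 0 in 0 profiles, above 0 in 1 and included 0 in 31. In CD8αβ T cluster 4 of WT the shares were 13.5% and 20.6%, a difference of -7.06 percentage points [-14.6, 2.31], so a difference of several points was not detectable at this depth. With *Rgs1* in place of *Cd69*, 2 of 18 cell type profiles lay below 0. These were TG CD8αβ T cells (5.73% with and 12.5% without an *Rgs1* UMI, -6.78 [-10.4, -1.56]) and TG NK cells (3.07% and 6.83%, -3.76 [-6.73, -0.32]), and within clusters 0 of 30 profiles lay below 0. After thinning to 2000 UMIs both intervals included 0, at -3.16 [-8.67, 2.99] in TG CD8αβ T cells and -4.45 [-9.18, 0.32] in TG NK cells. Without thinning the values were -0.77 [-6.77, 5.27] and -9.59 [-14.8, -4.52].

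As a share of all antibody UMIs, CD69 protein gave another order than its transcript. The CD69 antibody made up 0.288% of antibody UMIs in TG and 0.492% in WT NKT cells, 0.222% and 0.290% in CD8αα T cells, 0.132% and 0.262% in NK cells, 0.102% and 0.139% in CD4 T cells, 0.0842% and 0.156% in CD8αβ T cells and 0.0739% and 0.123% in mature B cells. By this share NKT cells stood at the top of the lymphocytes, followed by CD8αα T cells, whose interval overlapped that of NK cells in WT, and mature B cells were among the lowest. The order below NKT cells turned with the scaling, since the antibody total per cell differed between cell types, with a median of 578 UMIs in TG CD8αα T cells and 2430 in TG mature B cells. In CD69 UMIs per cell, TG mature B cells (2.09) stood above CD4 T cells as well as CD8αβ T (1.66), CD8αα T (1.61) and NK cells (1.01), and NKT cells (4.36) stayed highest. In WT, mature B cells (2.93) stood above NK cells (2.68) but below CD8αα T cells (3.40). The median deposited normalised value was higher in CD8αα T than in mature B cells in TG (0.234 and 0.196) and WT (0.388 and 0.272). The CD69 counts are low, with a median of 2 UMIs per TG and 4 per WT NKT cell and 1 to 3 in most other classes. In TG the share was lower in 9 of 9 cell types, with log2 ratios of -0.38 in CD8αα T cells to -1.26 in immature B cells and -3.01 in monocytes, where 3 cells held 75.9% of the WT counts. The median over 48 antibodies was itself below 0 in 8 of these cell types and reached -0.67 in macrophages. CD69 ranked between 2 and 18 from the lowest of the 48.

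**Figure D4:**
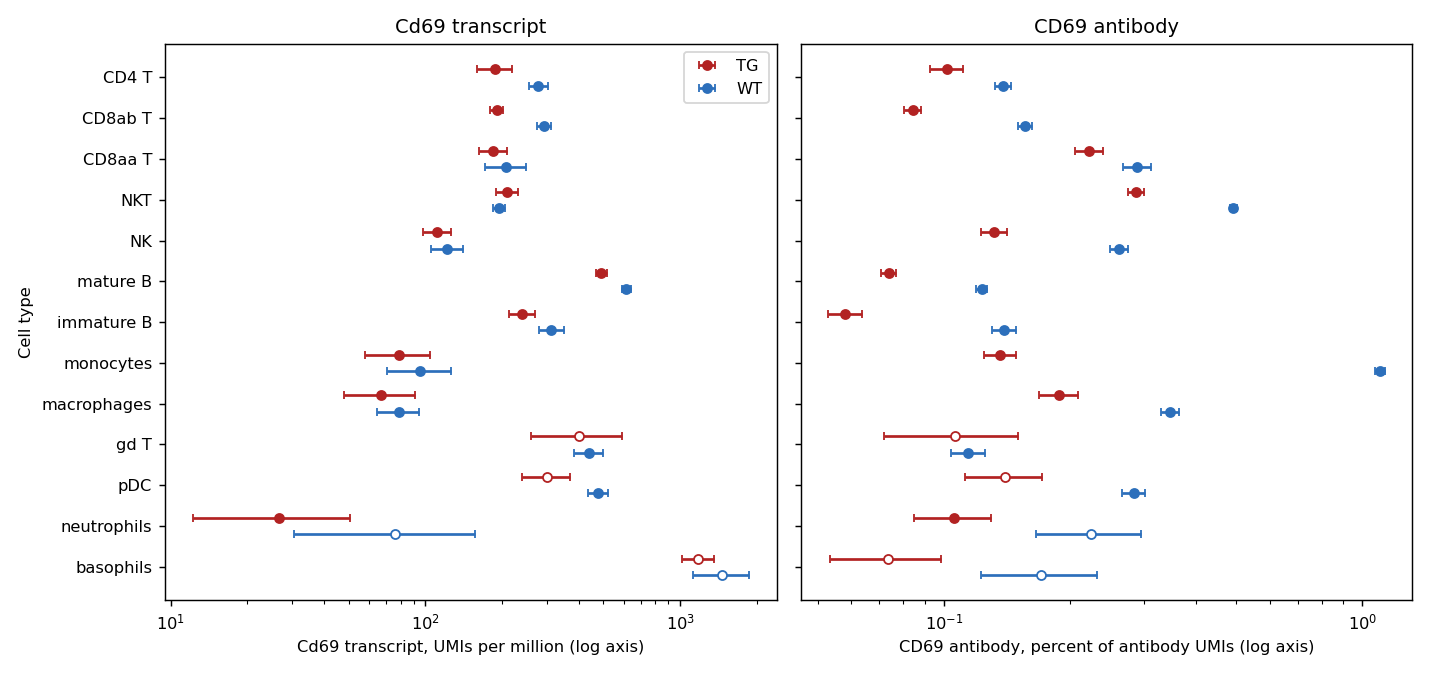
*Cd69* transcript in CPM (left) and CD69 antibody in percent of antibody UMIs (right), both on log axes, by cell type (y axis), TG in red and WT in blue, with exact 95% intervals and open symbols under 50 cells. Mature B cells are high for the transcript (491 and 616 CPM) and low for the antibody as a share of their large antibody totals (0.0739% and 0.123%), and NKT cells are high for the antibody (0.288% and 0.492%).

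Within a cluster the CD69 antibody did not follow its own transcript. Among 27 T and NK cluster profiles, the antibody share was lower in cells with a *Cd69* UMI in 12 and higher in 15. It did go with *S1pr1*, a comparison chosen after the values were seen. In 19 of 19 T and NK cluster profiles with at least 20 cells on each side, cells with an *S1pr1* UMI held a smaller share of CD69 antibody than cells without. In CD4 T cells the shares were 0.0668% with and 0.134% without *S1pr1* in TG and 0.117% and 0.162% in WT. In CD8αβ T cells they were 0.0586% and 0.106% in TG and 0.118% and 0.183% in WT. NKT cells had 0.192% and 0.296% in TG and 0.299% and 0.49993% in WT. These values are for whole cell types, in which clusters are mixed. Within clusters the gap varied. In WT it was 0.108% and 0.117% in CD8αβ T cluster 4 and 0.113% and 0.266% in CD8αβ T cluster 7. In CD4 T cluster 6 it was 0.0476% and 0.149% in TG and 0.103% and 0.123% in WT. Of 48 antibodies only CD69 was lower in all 19 profiles, followed by CD137 in 17 and CD103 in 16, and the median antibody was lower in 11.5. This order is from the same values as the choice and is a description. The median CD69 count per cell was equal on both sides in 13 profiles. When *S1pr1* detection was taken after thinning to 1000 UMIs, the share was lower in 7 of 11 profiles. In B cell and other clusters it was lower in 2 of 5.

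The CD197 antibody, which binds CCR7, was highest in cluster 28 (2.14% of antibody UMIs in TG, 1.93% in WT), the cluster with the most *Ccr7* transcript. Mature B cells held 0.276% in TG and 0.221% in WT. CD4 T cells held 0.103% and 0.102% and CD8αβ T cells 0.0908% and 0.106%, with a median of 1 UMI per cell. In CD4 T cells, where the *Ccr7* transcript was lower in TG, the log2 ratio of CD197 was 0.01 [-0.14, 0.17]. In T and NK clusters the antibody share was lower in cells with a *Ccr7* UMI in 7 of 8 profiles, so at these counts CD197 did not rank single T cells by *Ccr7*.

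The pathway around the members was described through 8 lists of 65 genes, of which *S1pr3* and *Sphk1* were not analysed here. Over 457 gene and cell type pairs with enough UMIs, 13 were called higher in TG (2.84%) and 30 lower (6.56%), against 2.32% and 1.82% of all pairs. Among the other S1P receptors, 4 of 8 pairs were called higher and 0 lower, and all 4 were *S1pr5*, the receptor known for the exit of NK cells from bone marrow and lymph nodes. It stood at 280 and 102 CPM in NK cells (log2 ratio 1.47 [1.22, 1.72]), at 127 and 22.2 CPM in CD8αβ T cells (2.52 [2.16, 2.90]) and had a log2 ratio of 2.19 in macrophages. In CD8αα T cells it had 61 UMIs in 410 TG cells and 0 in 194 WT cells, where 3 UMIs would be 5.45 CPM. Within clusters the levels were 532 and 150 CPM in CD8αβ T cluster 12, 97.6 and 34.1 CPM in CD8αβ T cluster 7 and 290 and 204 CPM in NK cluster 8. In CD8αβ T cluster 13 they were 37.2 and 2.07 CPM, and NK cluster 3 held 86.2 CPM in TG and 0 UMIs in WT. Cluster 12 made up 24.4% of TG and 8.91% of WT CD8αβ T cells. In NK and CD8αβ T cells as whole classes the ratio of *S1pr5* was larger than those of *S1pr1* and *S1pr4*. *S1pr2* (receptor coupled to G12/13) had no call, and the genes of S1P synthesis and breakdown had 0 calls in 29 pairs by cell type. By cluster these genes had 1 call in 37 pairs, lower in mature B cluster 1.

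In the RGS family, relatives of *Rgs1* that shorten G protein signals, 0 of 45 pairs were called higher and 8 lower. Of all pairs 2.32% were called higher and 1.82% lower. *Rgs2* was lower in mature B cells (276 CPM in TG, 662 in WT, -1.26), immature B cells (-1.20), CD8αβ T cells (-1.04) and NKT cells (-1.02). *Rgs10* was lower in CD4 T cells (-1.08), CD8αβ T cells (-1.42) and mature B cells (-2.71), and *Rgs16* in CD8αβ T cells (-2.23). In mature B cluster 1 *Rgs10* was at 2.55 and 3.53 CPM, too few UMIs for a call, while *Rgs2* was called there as well (-1.30). In CD4 T clusters 6 and 9 *Rgs10* was not called (-0.34 and -0.70). In the list of 10 transcription factors, 0 of 80 pairs were called higher and 9 lower, against the same 2.32% and 1.82%. *Lef1* and *Bach2*, factors of naive T cells, were lower in CD4 T cells (-1.07 and -1.13) and CD8αβ T cells (-1.13 and -1.52), the cells in which *Ccr7* was lower and the cluster sizes differed. Within CD4 T cluster 6 they stood at -0.51 and -0.02, within CD4 T cluster 9 at -0.25 and -1.74 and within CD8αβ T cluster 4 at -0.56 and -0.98, so of these 6 values only that of *Bach2* in cluster 9 was called. *Klf4*, a relative of *Klf2*, was lower in CD8αβ T cells (-1.28), NK cells (-1.68) and NKT cells (-1.08), while *Klf2* was above 0 in all 3.

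Genes linked to residency gave 6 calls in each direction out of 47, where 2.32% of all pairs were called higher and 1.82% lower. In CD4 T cells *Itga1*, the collagen-binding integrin CD49a, was higher, with 65.1 CPM in TG against 17.5 CPM in WT. *Prdm1* (1.46) and *Bhlhe40* (1.22), transcription factors of resident T cells, and *Cxcr6* (1.13), the chemokine receptor of liver-resident cells, were higher there too. The CD4 T clusters differed in size between genotypes, with cluster 6 at 24.4% of TG and 54.1% of WT cells and cluster 9 at 55.5% and 37.1%. Within cluster 9 *Itga1* was called higher (1.35) among 4 residency genes with enough UMIs, with *Bhlhe40* at 0.60 and *Cxcr6* at 0.52, and within cluster 6 none was called out of 1. In CD8αβ T cells *Itga1* was higher (1.48) and *Itgae*, the integrin chain CD103 that TGF-β is known to induce, was lower (3.77 CPM in TG, 38.8 in WT, -3.36). *Prdm1* was higher in CD8αα T cells (1.04). *Cxcr6* was lower in NK cells (-1.63), mature B cells (-1.88) and monocytes (-2.52), *Itgae* also in macrophages (-1.39) and *Prdm1* in immature B cells (-1.94). In mature B cluster 1 *Cxcr6* was at 7.65 and 7.06 CPM, and the size of cluster 17 in the mature B class is given above with *Rgs1*. Homing genes gave 3 calls higher and 1 lower out of 42 by cell type, and 5 higher and 6 lower out of 61 by cluster. The shares of all pairs by cluster were 2.29% higher and 1.78% lower. *Ccr9*, the receptor for the gut chemokine CCL25, was higher in CD4 T cells (2.03) and CD8αα T cells (1.70), and *Itga4* was higher in NKT cells (1.67). Within CD8αβ T clusters both were also called lower, *Ccr9* in clusters 4 (-3.40) and 7 (-1.39) and *Itga4* in clusters 4 (-1.43) and 13 (-2.92). Of 98 pairs in the signalling list 2 were called, both *Arrb1*, a β-arrestin, lower in NK cells (-1.01) and monocytes (-1.23). This count is near the 1.82% of all pairs called lower.

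Immediate early genes, which respond to stimulation and to the handling of tissue, were followed because *Cd69* and *Rgs1* are induced together with them. Of 108 pairs, 0 were called higher and 4 lower, where 2.32% and 1.82% of all pairs were called. The 4 were *Fosb* in macrophages (-1.18) and monocytes (-1.06), *Egr1* in monocytes (-1.13) and *Nr4a1* in NKT cells (-1.10). By cluster 1 was called higher and 6 lower out of 168, where 2.29% and 1.78% of all pairs were called. The median log2 ratio of the immediate early list was below 0 in all 9 cell types, from -0.10 in mature B cells to -0.44 in CD8αβ T cells. Its part in the lower *Cd69* and *Rgs1* was not tested.

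The genes whose level over the 39 profiles was most like each member were ranked by Pearson correlation among 6528 genes. For *S1pr1* they were *Crlf3* (0.81), *Cpm*, *Ttc13* and *Ccr7* (0.77). For *S1pr4* they were *Kcnab2* (0.76), *Ttc13*, *Stim1*, *Cdc25b* and *Nfatc3* (0.73). For *Klf2* they were *Rasgrp2* (0.83), *Cxcr4*, *Rasa3*, *AB124611* and *Tsc22d3* (0.77), and for *Klf3* they were *Tmem71* (0.74), *Il17ra*, *Klf2*, *Stk38* and *Sidt2* (0.66). *Ccr7* was most like *Crlf3* (0.87), *Foxp1*, *St6gal1*, *Fam169b* and *Gm8369* (0.80), so that *Crlf3* led the ranking for both *S1pr1* and *Ccr7*. *Rgs1* was most like *Itm2c* (0.87), *Tmem181a*, *Padi2* and *Os9* (0.83). *Cd69* was most like *Eif4a2* (0.84) and the mitochondrial genes *mt.Nd2*, *mt.Nd1*, *mt.Nd4* and *mt.Nd4l* (0.80).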

How the data were processed

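The members and lists were chosen with earlier results of these data known. CD45+ liver cells of 2 pooled capture libraries were analysed, and groups came from the labels and, for genotype, the deposited cell metadata. According to the methods, reads were aligned by the authors to mm10 with STAR in the BD Rhapsody pipeline and deposited UMI counts of RNA and antibodies. The deposited normalised values are on a natural log scale, and the authors give the mitochondrial share as a percent. The filter on cells is not given in the sources used here. Deposited cell types and clusters, which the authors made after joining the libraries by canonical correlation in Seurat, were used as given, and no doublet caller was run. For all 7 genes the filtered counts equalled those of the library files in every analysed cell. The log2 and share calculations above rest on summed counts, with 0.5 UMIs added only where a count was 0. Shares of cells have Clopper-Pearson intervals, and differences of shares Newcombe intervals. Genes named are the 7 members, list genes called in a described cell type (at most 4 per list and cell type, by size of ratio) and the 5 genes most like each member with a mean of at least 20 CPM. *S1pr3* and *Sphk1* were not analysed here, and 1 antibody with its gene and 2 of the genes most like a member are not reported here. Alternatives were TMM scaling (edgeR 4.0.16, R 4.3.3, used for scaling factors only), equal weight per cell, totals less ribosomal and mitochondrial genes, thinning, leaving out cells of mixed lineage or with *Trdc*, the largest cluster alone, no minimum of UMIs, and a fold of 1.5. Calculations used Python 3.11.15 with numpy 2.4.6, pandas 2.3.3, scipy 1.17.1 and statsmodels 0.14.6, and were tested on simulated data.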

Additional observations from a re-analysis of the deposited data

Results flagged for a closer look

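*S1pr1* and *Klf3* each had a TG over WT ratio above 0 in NK cells and below 0 in CD8αβ T cells. For *S1pr1* the log2 ratio was 0.79 in NK cells and -0.25 in CD8αβ T cells. For *Klf3* it was 0.68 in NK cells and -0.20 in CD8αβ T cells. In CD8αβ T cells 21.6% of genes had a lower ratio than *S1pr1* and 25.7% a lower one than *Klf3*. In NK cells these shares were 95.7% and 94.3%. Within the 4 CD8αβ T clusters compared, the *S1pr1* intervals all included 0. The *Klf3* ratios there stood between -0.23 and 0.12, with an interval below 0 in cluster 4 alone. Within NK cluster 8 *S1pr1* was lower (-1.16). Of the 152 *S1pr1* UMIs of TG NK cells, 102 lay in cluster 11. This cluster made up 45.2% of TG and 3.58% of WT NK cells. The difference between the cell types was not tested, since each genotype is 1 library, and the TG cells named NK also held more *Cd3e* and *Trac* than the WT cells named NK.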

How the results depend on the processing

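Of 385 member and cell type ratios recomputed under 7 alternatives, 362 kept their sign and 345 stayed within the interval of the reported value. The alternatives differed in how far they moved a ratio. In the largest cluster alone 48 of 55 kept their sign and 38 stayed within the interval. After thinning to 1000 UMIs these numbers were 46 and 42. Under TMM scaling, and under totals less ribosomal and mitochondrial genes, 55 of 55 stayed within it. Pairs called higher, 0 as reported, numbered 1 with equal weight per cell (*S1pr1* in NKT cells), 1 without *Trdc*-positive cells and 1 in the largest cluster alone (both *Klf2* in NK cells), 3 with no minimum of UMIs (12.1% of all pairs) and 7 of 55 at 1.5-fold (8.39% of all pairs). Pairs called lower, 3 as reported, numbered 1 in the largest cluster alone (*Rgs1* in NK cells), 5 with no minimum (10.9% of all pairs) and 10 at 1.5-fold (7.06% of all pairs). The call of *Rgs1* in mature B cells was lost under TMM scaling (-0.99). In the largest cluster alone, *Rgs1* lay below 0 in 3 cell types and *Cd69* in 2. The balance difference between CD4 T and NKT cells in TG was 2.96 when cells with a UMI were counted. Between CD8αβ and CD8αα T cells in WT it was 4.23 after thinning. WT CD8αα T cells held only 8 *S1pr1* UMIs before thinning. Joint detection of *S1pr1* with *Cd69* lay above 0 in 2 profiles at 2000 UMIs and in 4 without thinning, and below 0 in 0 under each. With alternatives chosen after seeing the data, the lower CD69 antibody share of *S1pr1*-positive cells held in 18 of 19 profiles per cell and by mean percent, in 19 without the 5% of cells with the highest CD69 counts, and in 7 of 11 after thinning. Of the 35 most like genes, 12 were shared by TG profiles alone and 20 by WT profiles alone. Of 457 pathway pairs, 35 were higher and 85 lower at 1.5-fold, against the same 8.39% and 7.06%. The cause of these changes was not tested. No paired analysis was possible because each genotype is 1 library, and for the same reason no replicate could be left out.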
